A study of Mus musculus with 70 samples.

Results

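At lights-off, the hippocampus of 11 APP23 transgenic mice (TG) was compared with that of 12 non-transgenic littermates (NTG), over both feeding regimens. These were the 23 animals killed at Zeitgeber time (ZT) 12, out of 69 animals in the series, and they gave 24 of its 70 RNA-seq libraries. They were chosen by genotype, feeding and time of sacrifice alone, and feeding was a covariate in the comparison. The TG mice comprised 5 on time-restricted feeding (TRF) and 6 fed ad libitum (ALF), and the NTG mice 6 on TRF and 6 on ALF. One NTG animal on TRF was averaged from a pair of libraries that carry the same number, one with an added R.

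APP23 mice carry a human APP transgene with a familial Alzheimer disease mutation on a C57BL/6 background. Its Thy1 promoter drives expression in neurons, so that amyloid plaques form with age while the mouse App gene stays in place. All mice lived alone in a 12 h light and 12 h dark cycle, ZT12 being the time when lights go off, and were killed in the dark at 10 to 13 months of age. TRF mice had food for 6 h of the night, from ZT15 to ZT21, starting at 6 to 9 months, so that at ZT12 their last meal lay in the previous night. Sex was balanced by design, but no animal's sex was given. Hippocampal RNA of one hemisphere was poly-A selected and sequenced.

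Brain cholesterol is made within the brain, because lipoproteins of the blood do not cross the blood-brain barrier. Its synthesis runs from acetyl-CoA through mevalonate and farnesyl diphosphate to squalene, and then through lanosterol to cholesterol. When membrane sterol falls, the SCAP protein escorts the transcription factor SREBP2 to be cleaved, and cleaved SREBP2 raises transcription of most enzymes of the pathway.

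The Thy1 gene, which marks the promoter of the transgene, checked the labels. Thy1 ran from 116696 through a median of 137965 to 171318 normalized counts in TG mice, against 23406, 25897 and 29068 in NTG mice. No TG animal came near an NTG animal. The difference was 2.44 ± 0.06 on the log2 scale (SE, 11 TG against 12 NTG), or 5.42-fold, with limma's adjusted p = 2.34e-22. Mouse App, the gene of the amyloid precursor, had 47930 to 64939 normalized counts in TG mice and 47704 to 61790 in NTG mice. The groups overlapped, and the difference of 0.11 ± 0.06 did not pass (adjusted p = 0.415). How reads of the human transgene were assigned between these rows was not tested.

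Libraries held 29.7 to 42.2 M reads in TG mice and 27.9 to 39.8 M in NTG mice, if one step of the deposited values is taken as 1 read. The first principal component, with 28.9% of the variance, ran with the level of choroid plexus markers. Their mean log2 level lay over 9 in 7 TG and 5 NTG animals and under 9 in 4 TG and 7 NTG animals, and Ttr, the transthyretin gene of that tissue, ran from 456 to 132502 normalized counts in TG mice and from 132 to 148217 in NTG mice. All 18 choroid markers had positive differences (median 0.84), and none passed the test. Markers of some neighbouring regions also differed in sign. The log2 difference was positive for 8 of 8 striatal markers (median 0.46) and negative for 9 of 9 thalamic ones (median -0.39), with none called. Cortical markers were positive in 4 of 8 (median -0.01). In other animals killed at lights-on (ZT0), striatal markers were positive in 1 of 8 (median -0.17) and thalamic ones in 0 of 9 (median -0.21). Rn45s, a ribosomal RNA precursor, took 0.059 to 0.451% of the total in TG libraries and 0.0613 to 9.4% in NTG libraries. In bulk tissue, fewer cells of a type and less RNA per cell cannot be told apart.

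Over 14260 genes, 10 were higher in TG mice at ZT12, which is 0.0701% of those tested, and 9 were lower, which is 0.0631% (limma, Benjamini-Hochberg adjusted p under 0.05). Among the higher genes, beside Thy1, were the sterol carrier Stard4 and 7 enzymes of cholesterol synthesis, Mvd, Fdps, Fdft1, Sqle, Acat2, Nsdhl and Mvk. The lower genes included the corticotropin-releasing hormone binding protein Crhbp, the astrocyte glutamate transporter Slc1a2 and the muscle genes Smyd1 and Myom3. Without a correction, 790 genes were higher (5.54%) and 1080 lower (7.57%) at p under 0.05. The median difference over all genes was 0.002 and 50.7% of genes were positive.

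Promoters of the sterol enzymes are shown because cleaved SREBP2 is known to act together with the factor NF-Y at such genes. Windows from 250 bases before to 50 after the start came from RefSeq (GRCm38.p6), and 16 of the 21 genes of the cholesterol synthesis list had one. Letters TCACNCCAC, the core of a sterol regulatory element, stood on either strand in 1 of the 16 (6.25%), Hmgcs1, against 1.35% of 11019 genes with a window. The letters CCAAT, the box that NF-Y binds, stood in 15 of 16 genes (93.8%), against 42.5% of the 11019 genes. A gene with several windows counted once. In 10 of the 15 genes CCAAT stood at more than one place. Overlaps between the motifs were not treated apart. The first line below shows the window with both motifs, HMG-CoA synthase, and the other lines show called genes of this list with CCAAT. The called Acat2 was the 1 gene of the 16 whose window held neither motif. Each holds the 180 bases before the start, with matches of either motif in capitals, and CCAAT on the other strand reads ATTGG.
Hmgcs1: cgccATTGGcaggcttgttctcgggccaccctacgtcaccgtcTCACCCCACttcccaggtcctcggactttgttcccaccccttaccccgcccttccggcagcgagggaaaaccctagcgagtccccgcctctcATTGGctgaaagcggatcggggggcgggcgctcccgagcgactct
Mvk: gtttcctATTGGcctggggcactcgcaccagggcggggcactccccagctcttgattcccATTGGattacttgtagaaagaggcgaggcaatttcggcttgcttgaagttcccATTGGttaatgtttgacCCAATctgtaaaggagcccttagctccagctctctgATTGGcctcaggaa
Mvd: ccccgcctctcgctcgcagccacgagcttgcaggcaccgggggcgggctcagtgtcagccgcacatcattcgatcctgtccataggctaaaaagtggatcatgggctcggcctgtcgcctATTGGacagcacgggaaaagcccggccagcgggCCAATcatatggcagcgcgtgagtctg
Nsdhl: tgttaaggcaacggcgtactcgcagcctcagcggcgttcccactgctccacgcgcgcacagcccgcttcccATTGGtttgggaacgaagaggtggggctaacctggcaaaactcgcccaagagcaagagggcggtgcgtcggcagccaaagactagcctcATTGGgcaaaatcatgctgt
These stretches lie at chr13:119690171-119690350 (plus strand) for Hmgcs1, chr5:114444089-114444268 (plus) for Mvk, chr8:122443423-122443602 (minus) for Mvd and chrX:72918341-72918520 (plus) for Nsdhl. A match of letters is a description and no evidence of binding, and Fdps, Fdft1 and Sqle were not read here.

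Of the mevalonate arm, which turns acetyl-CoA into farnesyl diphosphate, 4 of 8 genes rose in TG mice at ZT12. All 8 differences were positive, with a median of 0.33, and 7 reached p under 0.05 without a correction, against 5.54% of all genes. Farnesyl diphosphate synthase, Fdps (chr3:89093588-89101967), had 2104, 2710 and 2987 normalized counts as the lowest, median and highest of TG mice, against 1675, 1909 and 2132 in NTG mice. Only 1 TG animal lay within the NTG range. Fdps rose by 0.49 ± 0.05, or 1.402-fold (adjusted p = 4.87e-06). Mevalonate diphosphate decarboxylase, Mvd (chr8:122433596-122443422), had 823, 885 and 1087 normalized counts in TG mice and 452, 725 and 861 in NTG mice. Of its 11 TG animals 10 stood above the highest NTG animal, and the difference was 0.50 ± 0.09 (adjusted p = 0.00894).

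Acat2, the cytosolic thiolase that joins acetyl-CoA units, had 1376, 1788 and 1952 normalized counts in TG mice against 1116, 1286 and 1476 in NTG mice. Here too 10 of 11 TG animals exceeded every NTG animal, and the difference was 0.41 ± 0.06 (adjusted p = 0.000566). Mevalonate kinase, Mvk, ran from 742 to 949 normalized counts in TG mice and from 498 to 800 in NTG mice. With 7 of 11 TG animals above the NTG range, it rose by 0.34 ± 0.06 (adjusted p = 0.0114). HMG-CoA synthase (Hmgcs1) differed by 0.32 ± 0.08 and did not pass (adjusted p = 0.148). Idi1, the isomerase before Fdps, had the smallest value of the arm, 0.16 ± 0.09.

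From squalene to cholesterol, 3 of 13 genes rose and all 13 differences were positive. Without a correction 9 reached p under 0.05, against 5.54% of all genes. Squalene epoxidase, Sqle (chr15:59315092-59331193), had 3333, 3898 and 4979 normalized counts in TG mice and 2368, 2803 and 3294 in NTG mice. The groups did not overlap, which held for 2 genes in the direction of higher TG values, Sqle and Thy1 (0.014% of 14260), and for 0 genes in the other direction (0%). Sqle rose by 0.45 ± 0.06, or 1.37-fold (adjusted p = 0.000239). Squalene synthase, Fdft1 (chr14:63145150-63181687), had 4203, 5064 and 6489 normalized counts in TG mice against 3336, 3799 and 4279 in NTG mice. A single TG animal fell inside the NTG range, and the difference was 0.46 ± 0.06 (adjusted p = 0.000108).

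The sterol dehydrogenase Nsdhl (chrX:72918521-72958528) had 837, 1223 and 1339 normalized counts in TG mice and 761, 867 and 1010 in NTG mice. Its 8 highest TG animals exceeded all NTG animals, and it rose by 0.39 ± 0.07 (adjusted p = 0.011). Next in this arm came the methyl oxidase Msmo1, at 0.31 ± 0.07 (adjusted p = 0.0713), and the ketoreductase Hsd17b7, at 0.28 ± 0.07 (adjusted p = 0.113). Smaller values stood at lanosterol synthase (Lss, 0.11 ± 0.08), lanosterol demethylase (Cyp51, 0.07 ± 0.07) and Sc5d (0.09 ± 0.06). Over both arms 7 of 21 genes were called and the median difference was 0.27, against 0.002 over all genes. Mvd, Nsdhl and Mvk lost their calls when the thalamic level, the striatal level or the Rn45s level entered as a covariate, and all 21 differences stayed positive with the covariate of transcript length described further on.

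**Figure D1:**
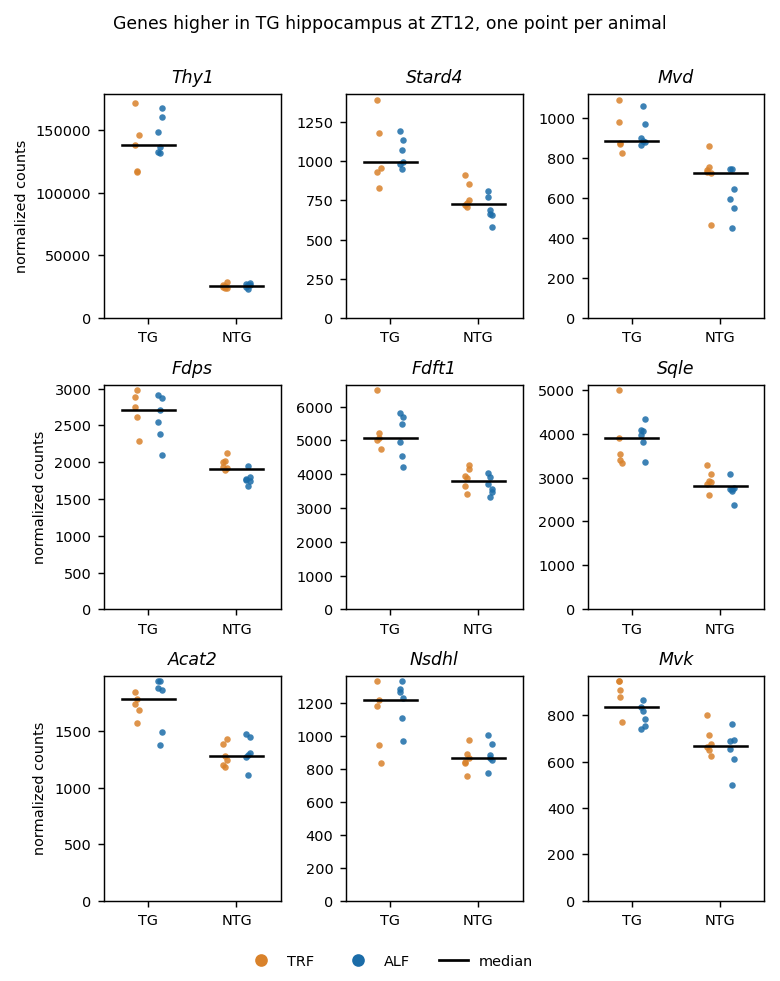
Normalized counts (vertical axis, from 0) of 9 genes higher in TG mice at ZT12, with 1 point per animal, TG left of NTG in each panel, points coloured by feeding and a bar at the median of each genotype. The groups do not overlap for Thy1 and Sqle, and 10 of 11 TG animals lie above all NTG animals for Stard4, Mvd, Fdps, Fdft1 and Acat2.

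In the list of the SREBP system and sterol uptake, 2 of 15 genes rose. Stard4, a carrier of sterol between membranes, had 831, 992 and 1388 normalized counts in TG mice and 581, 728 and 908 in NTG mice. With 10 of 11 TG animals above the NTG range, it rose by 0.51 ± 0.08 (adjusted p = 0.000595).

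Of the 15 differences in that list 10 were positive (median 0.05). Insig1, which holds SCAP back and is a target of SREBP2, differed by 0.37 ± 0.09 (adjusted p = 0.0967), and Srebf2, the gene of SREBP2, by 0.19 ± 0.06 (adjusted p = 0.219). Among lipoprotein receptors, Vldlr stood at -0.06 ± 0.07, Lrp1 at -0.08 ± 0.10 and Lrp8 at -0.10 ± 0.06. Genes of cholesterol export and clearance showed 0 calls among 11 members and a median of 0.05, with Apoe, the main brain apolipoprotein, at 0.02 ± 0.05 and the exporter Abca1 at 0.01 ± 0.09. Fatty acid synthesis, which the related factor SREBP1 controls, had 0 calls among 12 genes and a median of -0.09, where Fasn stood at 0.01 ± 0.07 and Acly, which supplies acetyl-CoA to both pathways, at 0.17 ± 0.05 (adjusted p = 0.164).

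The same sterol genes were then read at lights-on (ZT0), in 12 TG and 13 NTG other animals. There, 11 of 14260 genes passed (0.0771%), 8 higher and 3 lower. Of the 10 higher genes at ZT12, 7 were also called at ZT0, which is 70% of the list at ZT12 and 87.5% of that at ZT0, and Msmo1 was called at ZT0 alone. Thy1 is counted in both lists and in their overlap. The calls at ZT0 came from a model of 8 group means over both times, and those at ZT12 from the animals of ZT12 alone. Over the 21 enzymes of cholesterol synthesis the median was 0.27 at ZT12 and 0.23 at ZT0, and every value was positive at both times. Stard4 stood at 0.51 ± 0.08 at ZT12 and 0.55 ± 0.09 at ZT0, and Sqle at 0.45 ± 0.06 and 0.34 ± 0.06. Mvk differed most among the enzymes, at 0.34 ± 0.06 at ZT12 and 0.08 ± 0.07 at ZT0. A test of the difference between both times found 0 genes (limma, smallest adjusted p = 0.999), with 618 at p under 0.05 without a correction.

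**Figure D2:**
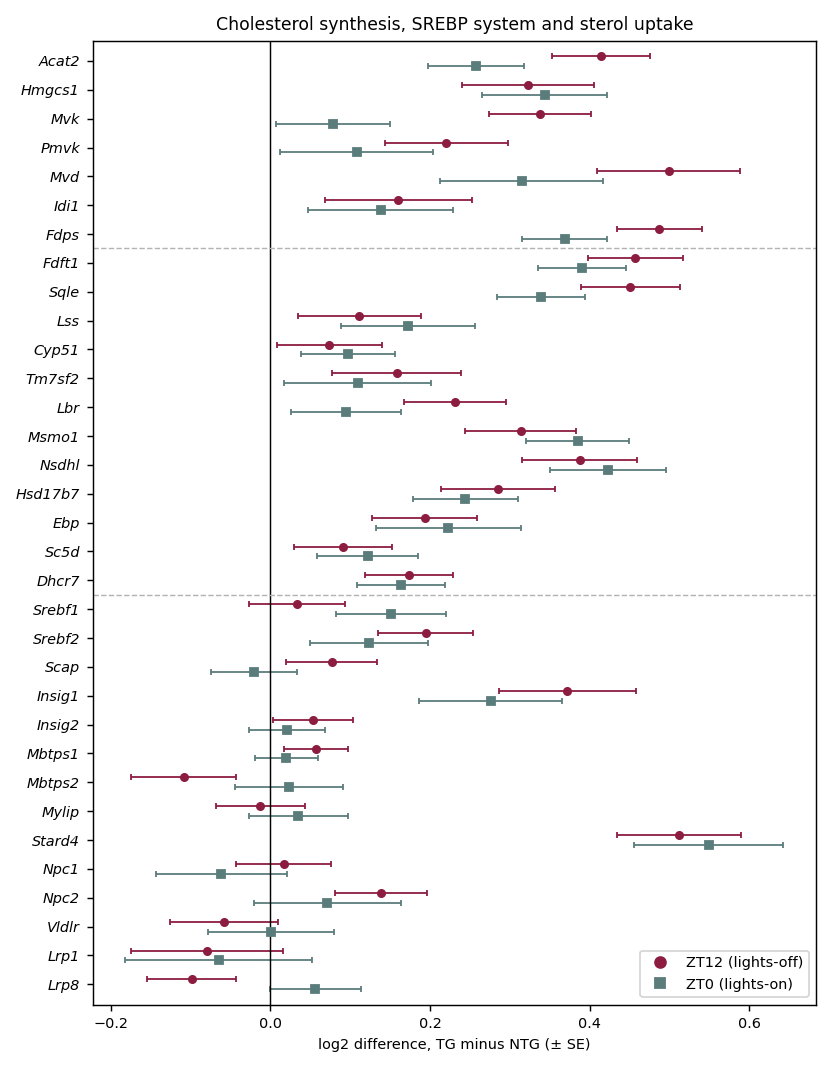
Log2 differences of TG minus NTG (horizontal axis, ± SE) for 33 genes, with ZT12 as circles and ZT0 as squares; dashed lines part the mevalonate arm, the squalene arm and the list of the SREBP system and sterol uptake. All 19 synthesis genes drawn lie right of 0 at both times, and in the lowest block Stard4 stands at 0.51 and Insig1 at 0.37 at ZT12.

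Among the lower genes, Crhbp (chr13:95431376-95444831) had the smallest p. Its product binds corticotropin-releasing hormone outside cells and in the hippocampus comes from inhibitory neurons. Crhbp had 562, 697 and 887 normalized counts in TG mice, against 822, 947 and 1157 in NTG mice. Of the TG animals 10 of 11 lay below every NTG animal. It fell by 0.43 on the log2 scale (SE 0.06, adjusted p = 0.000566) and was also lower at ZT0, by -0.39 ± 0.08 (adjusted p = 0.0384), the single gene called lower at both times.

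Crhbp was 1 of 9 lower genes at ZT12 (11.1%) and 1 of 3 at ZT0 (33.3%). No other gene of the 7 in the CRH and corticosteroid receptor list was called. Of the 7 differences at ZT12, 5 were negative and 2 positive (median -0.17, highest 0.48). The glucocorticoid receptor Nr3c1 stood at -0.17 ± 0.06 (adjusted p = 0.239), the mineralocorticoid receptor Nr3c2 at -0.21 ± 0.09 and the cortisone-activating enzyme Hsd11b1 at -0.26 ± 0.09.

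Luzp2, a leucine zipper protein gene, had 3004, 4499 and 5392 normalized counts in TG mice and 5244, 5682 and 7965 in NTG mice. A single TG animal reached the NTG range, and Luzp2 fell by 0.45 (SE 0.08, adjusted p = 0.0105). Chrdl1, a secreted antagonist of bone morphogenetic proteins that astrocytes release, had 117.7, 203 and 251 normalized counts in TG mice against 222, 290 and 392 in NTG mice. Here 7 of 11 TG animals lay below the NTG range, and the fall was -0.62 ± 0.12 (adjusted p = 0.011).

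Myom3, a protein of the M-band of muscle, was low throughout, with 18.97, 41.7 and 54.8 normalized counts in TG mice and 39.3, 79.8 and 107.3 in NTG mice. Only 5 of 11 TG animals were below the NTG range, but the medians lay far apart and the difference was -0.96 ± 0.18 (adjusted p = 0.0109). Smyd1, a histone methyltransferase of heart and skeletal muscle, had 19.3, 34.4 and 49.5 normalized counts in TG mice and 31.7, 58.0 and 124.7 in NTG mice. The ranges overlapped, and it differed by -0.97 ± 0.20 (adjusted p = 0.0394).

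Slc1a2, the transporter by which astrocytes clear glutamate, had 64380, 91628 and 113110 normalized counts in TG mice, against 103183, 119238 and 137481 in NTG mice. With 7 of 11 TG animals below the NTG range, it fell by 0.35 (SE 0.07, adjusted p = 0.039). Wwtr1, the transcriptional coactivator TAZ of the Hippo pathway, differed by -0.32 ± 0.07 (adjusted p = 0.046), Fam163a by -0.47 ± 0.10 (adjusted p = 0.0406) and the RIKEN gene 2900052N01Rik by -0.33 ± 0.07 (adjusted p = 0.0312). Shc3, a neuronal adaptor of receptor tyrosine kinases, was next at -0.52 ± 0.11 and did not pass (adjusted p = 0.0644).

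The lower list depended on single animals more than the higher one. Leaving out each animal in turn gave 10 to 15 higher genes but 4 to 23 lower ones, with 4 without animal TG_ALF_117 and 23 without animal TG_ALF_109, and 15 of the 23 omissions moved that count by over 1.5 times. Crhbp, Luzp2, Myom3, Chrdl1 and all 10 higher genes kept their calls in 23 of 23 omissions. Without animals numbered 200 or above, however, Chrdl1, Myom3, Nsdhl and Mvk lost their calls. Chrdl1 also lost its call with the thalamic, striatal or Rn45s level as covariate, and Luzp2 with the striatal or Rn45s level. In the omissions of single animals, Smyd1 and 2900052N01Rik kept theirs in 10, Fam163a and Slc1a2 in 8 and Wwtr1 in 7, with adjusted p up to 0.116 and no change of direction.

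**Figure D3:**
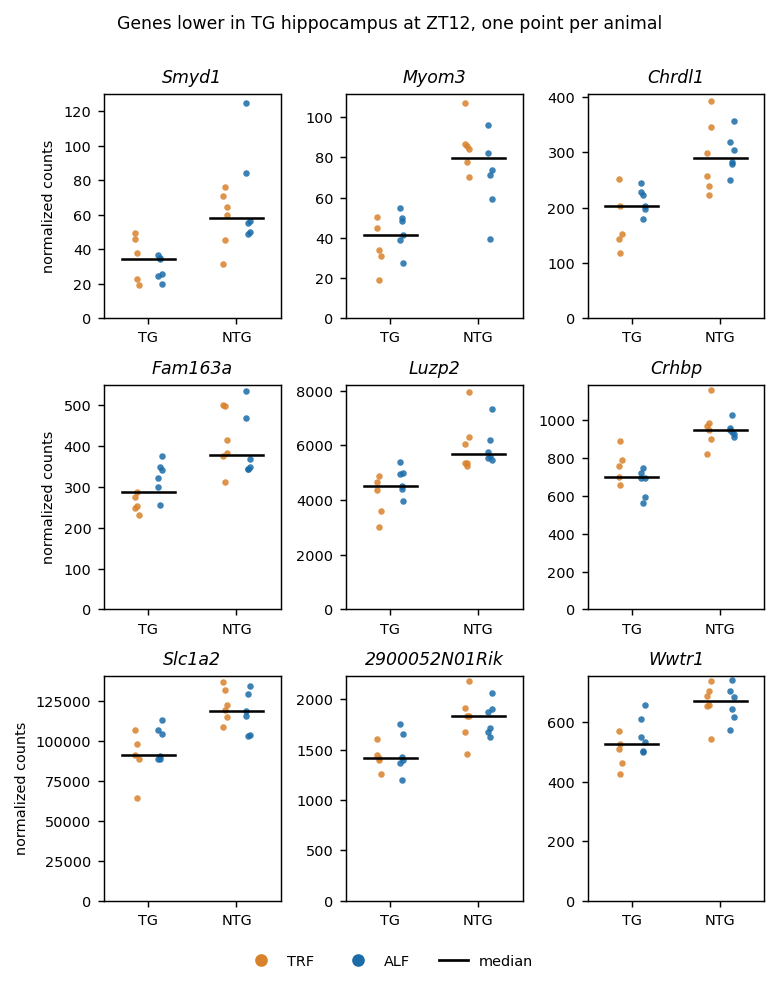
Normalized counts (vertical axis, from 0) of the 9 genes lower in TG mice at ZT12, with 1 point per animal, TG left of NTG in each panel, points coloured by feeding and a bar at the median of each genotype. For Luzp2 and Crhbp 10 of 11 TG animals lie below all NTG animals, while in the other panels more animals overlap.

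Both feedings were then taken apart in a model of 4 group means. On TRF, 2 genes passed (0.014%), Thy1 and Fdps, both higher. On ALF, 7 genes passed (0.0491%), among them Thy1, Fdft1, Sqle, Fdps and Stard4 as higher and Crhbp as lower. All 19 genes had the same direction on TRF as on ALF, which their call from both feedings together favours. The difference between TRF and ALF in the genotype effect was called for 0 of 14260 genes (limma, smallest adjusted p = 0.99998), and 215 reached p under 0.05 without a correction, which does not show that both feedings act alike.

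Stard4 differed by 0.42 ± 0.11 on TRF and 0.60 ± 0.11 on ALF. Sqle stood at 0.37 ± 0.09 on TRF and 0.53 ± 0.09 on ALF, and Fdps at 0.44 ± 0.08 on TRF and 0.53 ± 0.07 on ALF. The median of the 21 synthesis genes was 0.21 on TRF and 0.33 on ALF. Of the lower genes, Crhbp stood at -0.34 ± 0.09 on TRF and -0.52 ± 0.09 on ALF, while Slc1a2 stood at -0.46 ± 0.10 on TRF and -0.25 ± 0.10 on ALF, and Myom3 at -1.29 ± 0.25 on TRF and -0.66 ± 0.24 on ALF. The 5 genes of smallest p in the test between feedings were Zng1, Lcp1, Rtl4, Itgam and Abca6. Itgam, a microglial integrin and complement receptor, averaged 766 normalized counts in TG and 1079 in NTG mice on TRF, and 1105 in TG and 1067 in NTG mice on ALF, so that the difference between the feedings was -0.58 ± 0.17 (adjusted p = 0.99998).

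**Figure D4:**
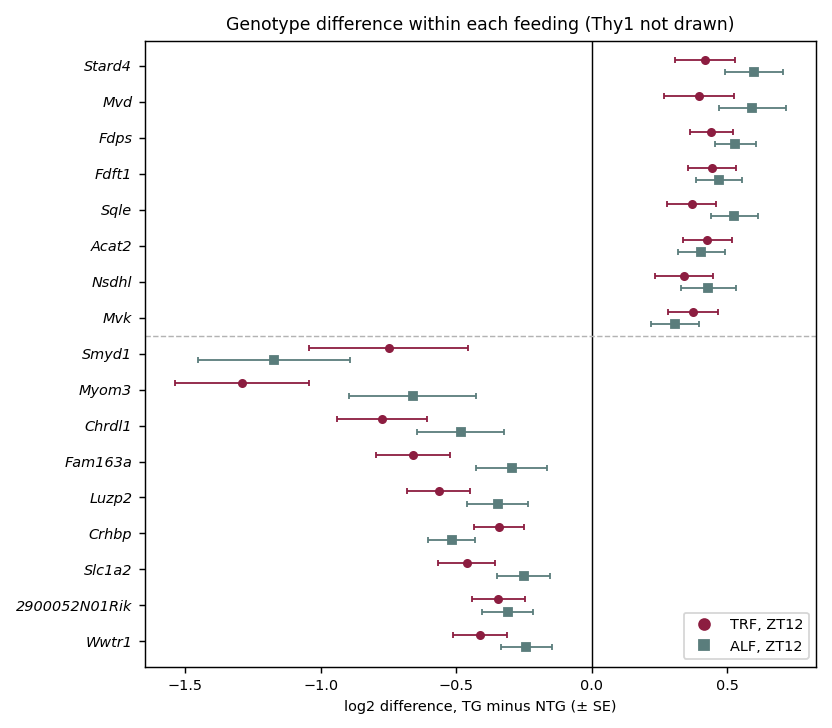
Log2 differences of TG minus NTG at ZT12 (horizontal axis, ± SE) for 17 called genes, with TRF as circles and ALF as squares; a dashed line parts the higher genes from the lower ones. Each gene lies on the same side of 0 in both feedings, and the genes were called from both feedings together.

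Amyloid and microglial lists held no called gene among their measured members. Of 17 genes of the APP family, its secretases and its sorting, 0 were called and the median was 0.01. Secretase subunits Aph1a and Psen2 stood at 0.18 ± 0.07 each (adjusted p = 0.293 and 0.311), and the beta-secretase Bace1 at 0.01 ± 0.04. Of 25 listed genes of plaque-associated microglia 19 were measured. Clec7a, Itgax, Cst7, Cd52, Ccl3 and Ccl4 were not, so a response of these genes was not tested. Of the 19, 15 were positive (median 0.10) and 0 were called. The lysosomal regulator Grn stood at 0.24 ± 0.07 (adjusted p = 0.227) and the cathepsin Ctsz at 0.18 ± 0.06. Of 10 complement genes 6 were positive (median 0.03), with the starter C1qa at 0.25 ± 0.07 (adjusted p = 0.193) and the receptor Itgam at -0.23 ± 0.10. Interferon-stimulated genes were positive in 12 of 16 (median 0.23), with Stat2 at 0.22 ± 0.07 (adjusted p = 0.219). With the Rn45s level as covariate 7 of the 16 were positive (median -0.02). In animals of choroid level under 9 that number was 7 (median -0.04), and over 9 it was 16 (median 0.16). Of 10 listed reactive astrocyte genes 6 were measured, without Lcn2, Steap4, Cxcl10 and Timp1. Of the 6, 4 were positive (median 0.06), and the filament gene Gfap stood at -0.11 ± 0.06. C1qa and Grn were called when the choroid level entered as a covariate.

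Astrocyte markers held the called Slc1a2, and of the 14 differences 9 were negative and 5 positive (median -0.10). Without a correction 7 were lower at p under 0.05, against 7.57% of all genes. The other glutamate transporter Slc1a3 stood at -0.23 ± 0.05 (adjusted p = 0.0974), the bicarbonate transporter Slc4a4 at -0.31 ± 0.08 and the water channel Aqp4 at -0.37 ± 0.10. Markers of oligodendrocyte precursors were negative in 12 of 12, led by Ptprz1 at -0.33 ± 0.08 (adjusted p = 0.102), while the 16 myelin genes had a median of 0.02. All 27 glutamate and GABA receptor genes were negative (median -0.15, 16 at p under 0.05 without a correction, 0 called), with Grm3 at -0.41 ± 0.11 and the AMPA subunit Gria3 at -0.17 ± 0.05. Ribosomal protein genes were positive in 79 of 82 (median 0.08, 0 called), with a median of 0.16 on TRF and 0.03 on ALF.

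Differences over all genes ran with transcript length. Genes were sorted into 5 equal bins by their longest GENCODE transcript, which 96.2% of genes had. The median difference was 0.05 in the shortest bin (median length 1480 bases), where 69.1% of genes were positive, and -0.07 in the longest (median 6980 bases), where 24.1% were. On TRF these medians were 0.08 and -0.10, and on ALF 0.02 and -0.04. At ZT0 they were 0.02 and -0.02. An index per animal, the mean log2 level of the shortest bin minus that of the longest, ran from -1.73 to -0.93 in TG mice (median -1.41) and from -1.79 to -1.34 in NTG mice (median -1.51). Both groups overlapped, with animal TG_TRF_104 at the top.

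With this index as a covariate, a setting chosen after the data were seen, ribosomal protein genes were positive in 45 of 82 (median 0.00) and the receptor genes in 4 of 27 (median -0.10). Precursor markers stayed negative in 12 of 12 (median -0.16) and astrocyte markers kept a median of -0.11. Slc1a2 stood at -0.25 (adjusted p = 0.00795), but lost its call when the thalamic, striatal or Rn45s level was the covariate instead. With the length index, the cholesterol list had a median of 0.33, and the calls numbered 18 higher and 9 lower genes. Among others, Hmgcs1, Insig1, Hsd17b7, Msmo1 and, from the fatty acid list, Acly then passed as higher beside the higher genes called without it. The peptides Npy and Sst and the adaptor Shc3 passed as lower. Fam163a, 2900052N01Rik and Wwtr1 lost their calls with the index (adjusted p = 0.0525, 0.054 and 0.0827). RNA integrity per animal was not used here, and its part in these shifts was not tested.

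Genes induced by glucocorticoids were positive in 17 of 20 (median 0.21), and 0 were called. Without a correction 12 were higher at p under 0.05, against 5.54% of all genes. The median was 0.18, 0.14 and 0.12 with the thalamic, striatal or Rn45s level as covariate. At ZT0, 2 of these 20 were positive and the median was -0.09. Plin4, a lipid droplet coat protein, had 417, 897 and 2395 normalized counts in TG mice against 212, 426 and 1137 in NTG mice, a difference of 1.005 ± 0.31 (adjusted p = 0.232) at ZT12, and stood at -0.32 at ZT0. The cell cycle inhibitor Cdkn1a stood at 0.65 ± 0.21 at ZT12 and -0.21 at ZT0, and the sulfotransferase Sult1a1 at 0.57 ± 0.15 and -0.04. Immediate early genes had a median of 0.09 at ZT12 and -0.16 at ZT0. Their median at ZT12 was 0.15 on TRF and -0.01 on ALF, and -0.02 over both feedings with the thalamic level as covariate. Egr2 was at 1.02 ± 0.31 at ZT12 (adjusted p = 0.219) and -0.43 at ZT0. The test between ZT12 and ZT0 called no gene of either list.

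The 5 genes of smallest p in that test were C030018K13Rik, Enox2, Casq1, Gm16576 and Ciart, all with adjusted p = 0.999. Ciart, a repressor of the clock, averaged 825 normalized counts in TG mice and 676 in NTG mice at ZT12, a difference of 0.30 ± 0.09, and stood at -0.25 ± 0.11 at ZT0. The 20 clock genes had a median of 0.02 at ZT12 and none was called. Feedback genes of ERK signalling were negative in 11 of 12 at ZT12 (median -0.16) and in 12 of 12 at ZT0 (median -0.18), with 0 called at ZT12 and the transcription factor Etv1 at -0.23 ± 0.05 (adjusted p = 0.0974).

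**Figure D5:**
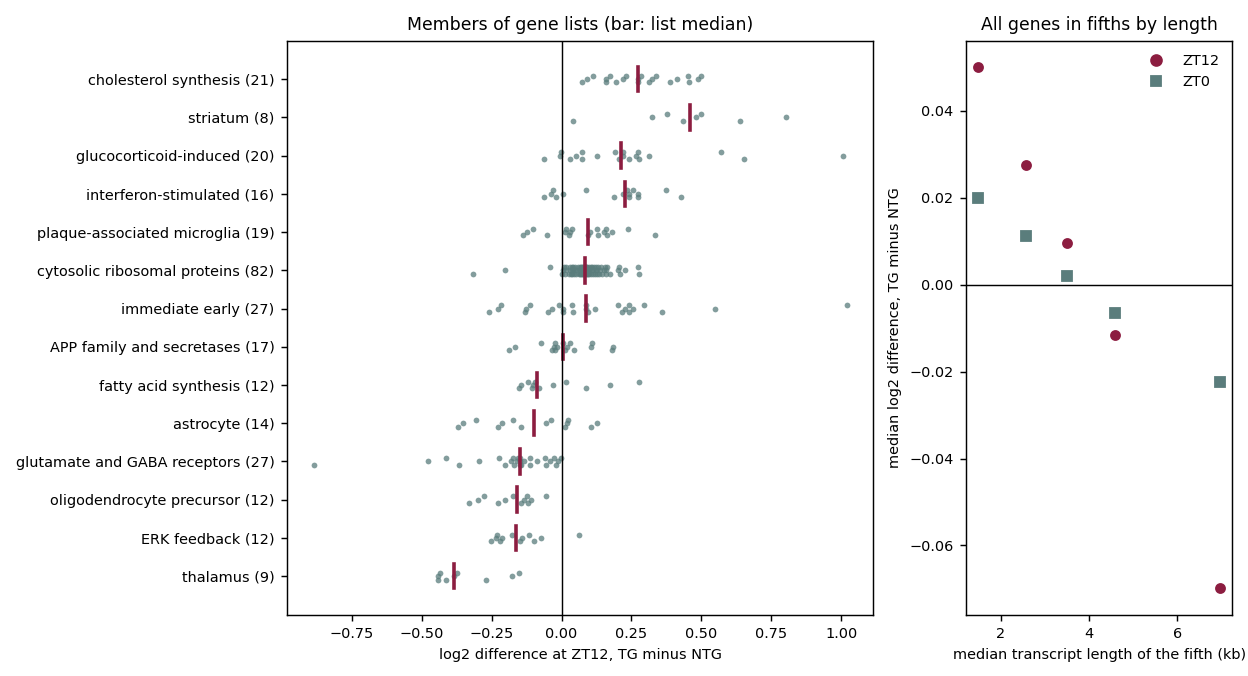
Left, log2 differences of TG minus NTG at ZT12 (horizontal axis) for the members of 14 gene lists, 1 point per gene, with the number of members in brackets and a bar at the list median. Right, the median difference (vertical axis) of all genes in 5 equal bins by transcript length (horizontal axis, kb) at ZT12 (circles) and ZT0 (squares), which falls from 0.05 in the shortest bin to -0.07 in the longest at ZT12.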

How the data were processed

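Poly-A selected hippocampal RNA was sequenced in paired reads on a NovaSeq instrument and trimmed with Trimmomatic on Galaxy, per the labels' protocols. HISAT2, featureCounts, DESeq2 and the build GRCm38 are named per the submitters' processing notes; versions and settings are not given in the sources used here. The deposited table holds, for 14260 genes, a normalized expression signal made by the authors, called normalized counts here: within each library 100% of values were whole multiples of one step, at a tolerance of 0.01 of a step. It was not used as read counts, so no count model was run.

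Values were taken as log2 of the value plus 1, without a further loss of genes at a mean of 10. The pair of libraries of one number was averaged before the log2. Their correlation was 0.992, as high as that of the most alike pair of other libraries, so that they may also be separate animals. Genotype was tested with limma 3.58.1 in R 4.3.3 (trend, robust variances, 2-sided) with feeding as covariate, Benjamini-Hochberg adjusted over all genes at 0.05. A model of 4 means was used for the feedings, and 8 means for ZT0 and ZT12. Nothing was paired. Samples were separate animals by number, and p-values measure the spread between them. The script was tested on simulated data.

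The members and the 46 gene lists were chosen with earlier results of these data known. Named genes were Thy1 and App, the called genes, uncalled ones of smallest p to make 10 per direction, called members and up to 4 members of smallest p per list, and the 5 genes of smallest p in either test of a difference. List members outside that rule (Bace1, Apoe, Abca1, Fasn, Hmgcs1, Idi1, Lss, Cyp51, Sc5d, Msmo1, Hsd17b7, Vldlr, Lrp1, Lrp8) were named after their values were seen. Symbols were matched to RefSeq for 97.6% of genes, and coordinates are on GRCm38. Alternatives varied the pseudocount (0.5, 5), a mean of at least 100, scaling, variances, weights, covariates and each animal. Other sex-linked genes were not analysed here. Some genes that the rule names, one of them called higher, are not reported here and are not drawn by name, but stay in the counts and medians.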

Additional observations from a re-analysis of the deposited data

Results flagged for a closer look

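Over tests of 31 genes in each of 4 groups of animals, an animal's gap to the nearest other animal exceeded Dixon's 95% critical value 4 times, fewer than the 1 in 20 that chance gives. Animal NTG_TRF_233 had 467 normalized counts of Mvd, against 723 to 861 in the other NTG animals on TRF, and 182 of Rtl4, against 137 to 152. Animal TG_TRF_24 had 6489 normalized counts of Fdft1, against 4751 to 5226 in the other TG animals on TRF, and it was also the highest of all 23 animals for Stard4 and Sqle. Animal NTG_TRF_10 had 1009.7 normalized counts of Ciart, against 649 to 781 in the other NTG animals on TRF. Without any single one of these animals, Mvd and Fdft1 kept their calls.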

How the results depend on the processing

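The 19 called genes kept their direction in all 853 combinations of gene and alternative and kept the call in 698, and 10 of the 19 kept it in every alternative planned. These genes were called from the same animals, so a kept direction is favoured by their selection. The 10 higher genes became 27 with array weights, 23 with the choroid level and 18 with the length index as covariate. They became 8 without animals numbered 200 or above. With the thalamic, striatal or Rn45s level as covariate they became 8, 7 and 7. The 9 lower genes became 51 with array weights, 15 with the choroid level, 5 without robust variances and 2 without animals numbered 200 or above. With covariates chosen after the data were seen, they became 4 (thalamus), 2 (striatum) and 3 (Rn45s), and 5 without both libraries of lowest correlation. Animals of choroid level under 9 (4 TG, 7 NTG) gave 1 higher and 0 lower genes, and those over 9 (7 TG, 5 NTG) gave 6 and 1. All 19 genes kept their sign in both subsets, with Fdps at 0.52 under 9 and 0.46 over 9, and Crhbp at -0.38 and -0.46. Both subsets are parts of the animals that gave the calls, so this is no independent test of direction. The 2 genes called on TRF became 23 with array weights, 7 in a model of 16 means and 1 with choroid, myelin or Xist level as covariate. Leaving out single animals gave 4 to 23 lower genes, 1 to 12 on TRF (12 without TG_TRF_24) and 4 to 8 on ALF. For the test between feedings and that between ZT12 and ZT0, none of the settings run gave a gene, over 23 omissions for the first and 48 for the other. All calls of the main comparison remained among the 78 with array weights and the 38 with the choroid covariate, and 16 of 19 among the 27 with the length index. The causes were not tested. Among the called genes, Smyd1 and Myom3 have the fewest counts and so the most counting error.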

Other observations

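Inhibitory neuron peptides had mixed values. Npy, a peptide of hippocampal interneurons, had 353, 648 and 1043 normalized counts as the lowest, median and highest of TG mice, against 526, 880 and 1225 in NTG mice, a difference of -0.47 ± 0.14 (limma adjusted p = 0.219). Sst stood at -0.26 ± 0.12, Vip at 0.24 ± 0.08 and Penk, a peptide abundant in striatum, at 0.67 ± 0.27, beside the higher striatal markers of TG mice. Npy and Sst passed with the length index as covariate.

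Genes of fat oxidation and ketone use had 11 positive values among 17 members, a median of 0.03 and 0 calls. In that list the lipase inhibitor Angptl4 stood at 0.73 ± 0.25 at ZT12 and 0.02 at ZT0. The chaperone Hspa1b stood at 0.37 ± 0.09 at ZT12 (adjusted p = 0.127) and 0.04 at ZT0, and the stress chaperone Hspb1 at 0.38 ± 0.15 and 0.13.

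Dentate gyrus markers were negative in 7 of 8 at ZT12 (median -0.20), led by Plk5 at -0.40 ± 0.13 and the granule cell factor Prox1 at -0.29 ± 0.11, whereas the CA1 list and the CA3 and CA2 list had medians of -0.02 and 0.01, with 0 called in each. Notch1 stood at -0.32 ± 0.09 (adjusted p = 0.167), and the Notch target Nrarp, called lower at ZT0, at -0.21 ± 0.07 at ZT12 and -0.48 at ZT0.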
